A study of Mus musculus with 15 samples.

Results

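The Lachnospiraceae NK4A136 group is a genus-level name for a set of related anaerobic gut bacteria, and its variants were followed here in mouse stool over an acute colitis. Every amplicon sequence variant (ASV, a distinct sequence of the amplified 16S rRNA gene) whose deposited taxonomy carried this genus name and that had at least 1 count over the 15 libraries was taken as a member. This gave 40 of the 507 ASVs with a count, and 76636 of 1403011 counts (5.46%). Another 157 ASVs carried the name and had no count in any library. The name was taken as the authors' table gives it, with no species named for any member, and ASV sequences were not analysed here.

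Lachnospiraceae are a family of the Clostridia that ferment plant polysaccharides in the colon, and many of its members make butyrate, a fuel of the colonic epithelium. The NK4A136 group is a placeholder genus of reference taxonomies, common in the mouse gut and without a formal species list. Several related strains of such a genus can live in one animal, and one bacterial genome can carry several copies of the 16S gene that differ in sequence, so an ASV is neither a species nor always a strain.

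The mice were littermates that lacked Gpr15l, the gene of a chemoattractant peptide made by mucosal epithelium, and all groups shared this genotype. Acute colitis was caused with dextran sulfate sodium (DSS), which damages the lining of the colon. The mice received human GPR15L, as a recombinant peptide, or phosphate-buffered saline (PBS) rectally each day between days 3 and 9, and the V4 region of the 16S gene was sequenced from stool. Libraries 1 to 3 (GPR15L) and 4 to 6 (PBS) were taken before DSS, and libraries 8 to 11 (GPR15L) and 12 to 15 (PBS) after it. Dosing began on day 3, so libraries 1 to 6 are read here as taken before any peptide or PBS. Their arm is the one on the label. A change over the DSS course thus holds both DSS and the rectal dosing, which cannot be told apart. Library 7 is titled as PBS after DSS while its library name continues those of the samples before DSS, so it entered no group unless stated. Sample titles write Gpr15-/- where the series text names Gpr15l, and the sample labels list males where that text speaks of both sexes. Ages are not given by the labels used here.

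Total counts ran from 48847 to 197433 per library, and a variant without a count in any library of a group may still have held 0.000912% (GPR15L before DSS), 0.000872% (PBS before), 0.000912% (GPR15L after) or 0.00128% (PBS after) of counts, for counting error only. A fold against a group without a count is given as "at least", against 3 counts over that group's summed total. All shares are relative, so less of one taxon and more of the others cannot be told apart. All library names of 1 time run on from each other, so a batch of libraries and the DSS course cannot be told apart. Mouse numbers are not shared between the times, so comparisons over DSS follow no animal. Mice were housed 3 to 4 per cage but no label gives a cage. Cage mates share gut bacteria, p-values treat the mice as independent, and effects of cage and of arm cannot be told apart.

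The 40 members were very unequal. Their total counts ran from 5 to 16611, and the 8 with the highest mean share (ASV22, ASV42, ASV39, ASV46, ASV51, ASV58, ASV73 and ASV74) held 74.0% of the genus counts. ASVs are numbered by total count among all ASVs. In the plot of shares by variant, 2 members, ASV22 and ASV51, were found in all 14 libraries with a group. Of the members, 10 were found in all 4 groups, and 8 were found in 1 library only. The same counts over all ASVs are not given here, so these describe the members alone. By time, 18 members were found both before and after DSS (45%), 16 only after (40%) and 6 only before (15%), against 46.1%, 24.2% and 29.7% of the 501 ASVs with a count in a group. Some of the members found only after DSS had counts in 1 library only, and more libraries were taken after DSS than before. How sparse the other ASVs were is not given here. ASV22 was the leading variant in 7 of the 15 libraries (3, 4, 6 and 12 to 15). It made up 0.0137%, 0.298% and 0.510% of counts in the GPR15L arm and 3.44%, 0.551% and 0.0188% in the PBS arm before DSS. After DSS it made up 1.58%, 0.273%, 0.0973% and 0.695% with GPR15L and 1.69%, 1.67%, 6.10% and 2.26% with PBS. All 4 PBS libraries after DSS were thus above all 4 with GPR15L, but ASV22 did not pass the test between the arms (log2 fold change -1.69 ± 1.20 SE, edgeR adjusted p = 0.310).

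Other leading variants differed in how they were spread. ASV42 made up 0, 0.892% and 0.0399% of counts in the GPR15L arm and 0.836%, 0.0450% and 0 in the PBS arm before DSS. After DSS it made up 0.305%, 4.59%, 0.649% and 2.01% with GPR15L and 0.367%, 0.448%, 0.224% and 0.0575% with PBS, with overlap in library 8 alone (log2 fold change 2.76 ± 1.79 SE, edgeR adjusted p = 0.259). ASV46 went the other way: after DSS it made up 0.318%, 0.203%, 0 and 0.446% with GPR15L and 1.02%, 1.16%, 3.63% and 1.49% with PBS. These did not overlap, but ASV46 did not pass either (log2 fold change -2.48 ± 1.77 SE, edgeR adjusted p = 0.310). Before DSS ASV46 made up 0, 0.0582% and 0.110% in the GPR15L arm and 0.766%, 0.115% and 0 in the PBS arm. ASV51, present throughout, made up between 0.0111% and 0.493% (GPR15L) and between 0.0113% and 1.03% (PBS) before DSS, and between 0.210% and 1.10% and between 0.232% and 1.56% after it. Between the arms after DSS, ASV51 had a log2 fold change of 0.16 ± 1.16 SE (edgeR adjusted p = 1).

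**Figure D1:**
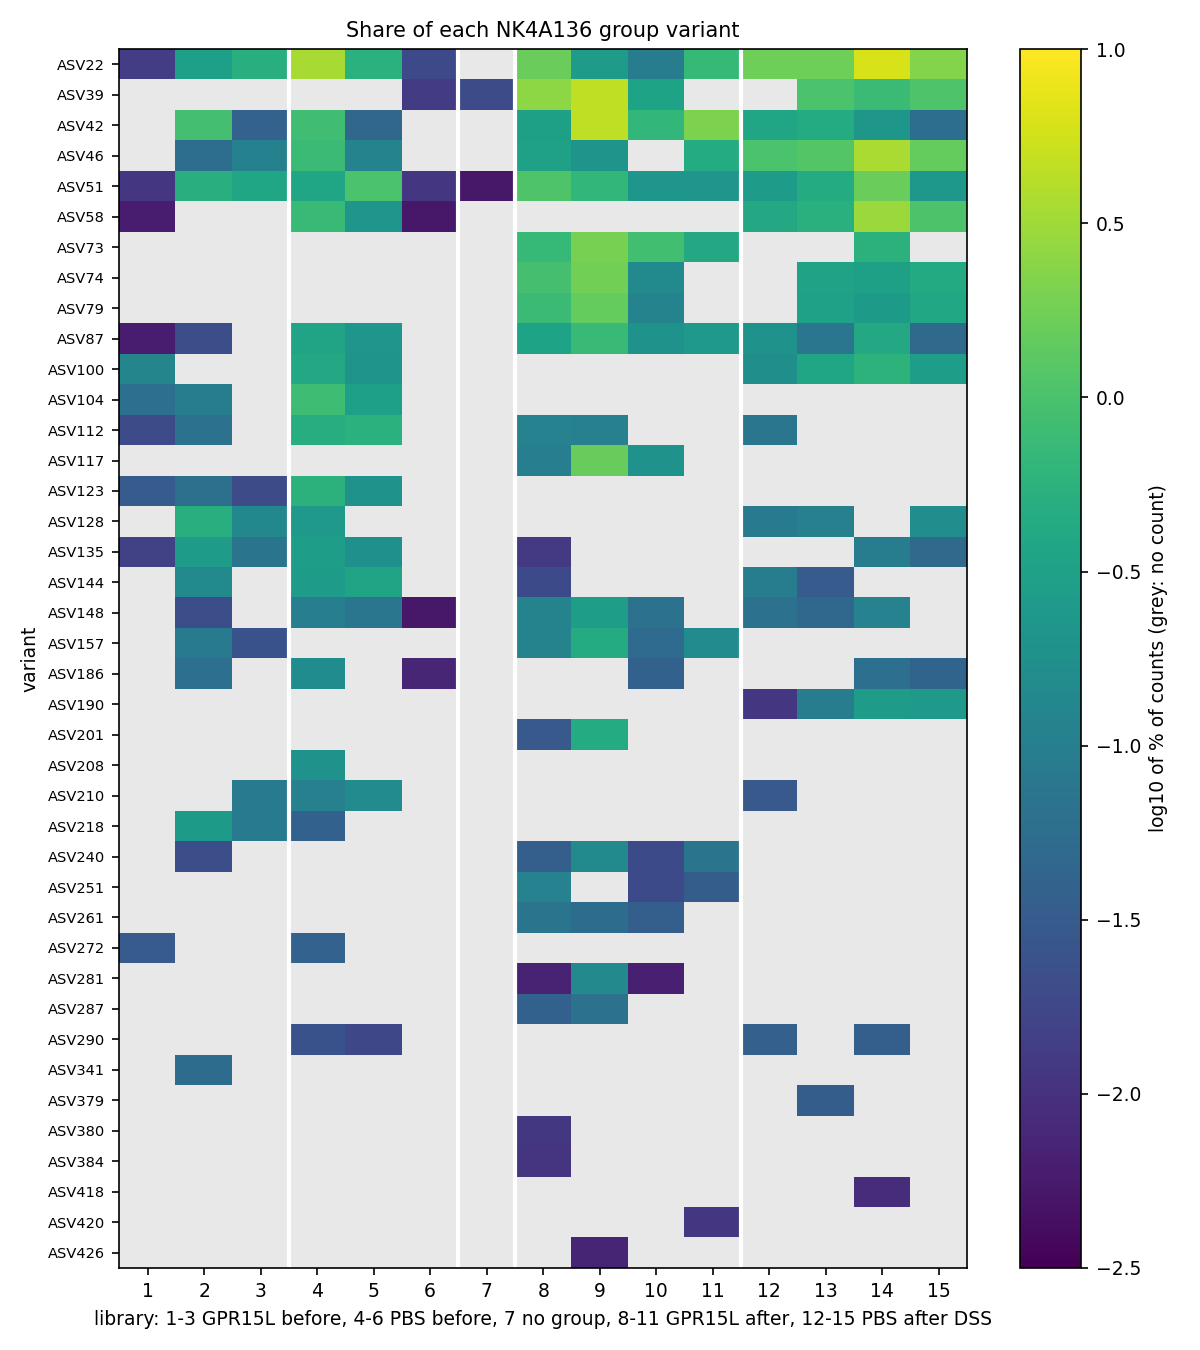
Share of counts of each of the 40 NK4A136 group variants (rows) in the 15 libraries (columns), as log10 of percent, with grey for no count and white lines between the groups. ASV22 and ASV51 are coloured in all 14 libraries with a group, ASV58 and ASV100 are grey in libraries 8 to 11, and ASV39, ASV74 and ASV79 are coloured after DSS in the same 6 libraries.

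The genus total spread widely within each group. It made up 0.321%, 3.41% and 1.46% of counts in the GPR15L arm before DSS (mean 1.73% ± 1.56 SD, n = 3) and 10.2%, 4.19% and 0.0609% in the PBS arm (4.83% ± 5.12, n = 3). After DSS it made up 9.40%, 19.5%, 3.06% and 4.29% with GPR15L (9.06% ± 7.47, n = 4) and 4.54%, 6.69%, 17.9% and 7.81% with PBS (9.24% ± 5.95, n = 4). The arms overlapped at both times, as did the times within the PBS arm. Within the GPR15L arm the overlap was 1 library, since library 2 before DSS was above library 10 after it. Some means rest on 1 library: without library 2 the mean of the GPR15L arm before DSS was 0.890%, without library 4 that of the PBS arm before DSS was 2.13%, and without library 9 that of the GPR15L arm after DSS was 5.58%.

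Counts summed per genus were tested by the quasi-likelihood test of edgeR, with Benjamini-Hochberg adjusted p-values over 78 genera or lowest named ranks. The log2 fold change of the genus was -0.27 ± 0.94 (SE) for GPR15L against PBS after DSS (adjusted p = 0.998) and -0.71 ± 1.09 before DSS (adjusted p = 0.782). From before to after DSS it was 1.33 ± 1.05 in the PBS arm (edgeR adjusted p = 0.452) and 1.77 ± 1.07 in the GPR15L arm (adjusted p = 0.274). The difference between these time courses was 0.44 ± 1.43 (edgeR adjusted p = 1.00). The genus total passed in none of the 5 comparisons, in which 14.1%, 0%, 5.13%, 10.3% and 3.85% of the 78 genera passed, in the order given. Where this share is 0, before DSS, edgeR gave 13 genera at unadjusted p under 0.05 and DESeq2 called 4. The sign between the arms after DSS depended on library 14 (0.21 without it), and that before DSS on library 4 (0.15 without it).

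Within its family the genus held a larger part in libraries 8 to 15, after DSS, than in any of libraries 1 to 6, before it. Library 7, titled as PBS after DSS, held 1.40% and would end this separation if counted there. It held 10.9%, 27.1% and 22.6% of all Lachnospiraceae counts in the GPR15L arm and 39.5%, 37.0% and 0.253% in the PBS arm before DSS. After DSS it held 60.2%, 73.9%, 64.9% and 64.7% with GPR15L (65.9% ± 5.76 SD, n = 4) and 53.0%, 60.6%, 49.4% and 57.5% with PBS (55.1% ± 4.94, n = 4). No test was made of this share. The other Lachnospiraceae made up 5.60% ± 3.32 of counts (GPR15L) and 15.6% ± 8.43 (PBS) before DSS, and 4.28% ± 2.66 and 8.14% ± 6.88 after it. Without library 14 the last of these was 4.72%. Library 6, a PBS library before DSS, was the one in which the genus was nearly missing while its family was not: Lachnospiraceae made up 24.1% of its counts and the genus 0.0609%.

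The number of variants did not separate the groups. At an equal depth of 48847 counts, 9.93, 17 and 10 variants were expected in the libraries of the GPR15L arm before DSS (12.3 ± 4.06 SD, n = 3) and 20, 15 and 5.91 in those of the PBS arm (13.6 ± 7.14, n = 3). After DSS the numbers were 23.0, 19.0, 16.0 and 10 with GPR15L (17.0 ± 5.47, n = 4) and 14, 15, 17.0 and 14 with PBS (15.0 ± 1.41, n = 4). The ranges overlapped in every comparison, and the GPR15L arm after DSS spanned a wider range than the PBS arm. The effective number of variants (the exponential of the Shannon index within the genus) was 7.60 ± 2.09 and 9.03 ± 3.16 before DSS, and 8.36 ± 2.09 and 7.81 ± 0.999 after DSS, for GPR15L and PBS. As a measure over chosen members, neither was tested. The equal depth is that of all counts of a library, not of the genus. Counts of the genus ran from 81 (library 6) to 16608 (library 4) in libraries with a group. Both measures may thus also hold how much of the genus was sampled.

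**Figure D2:**
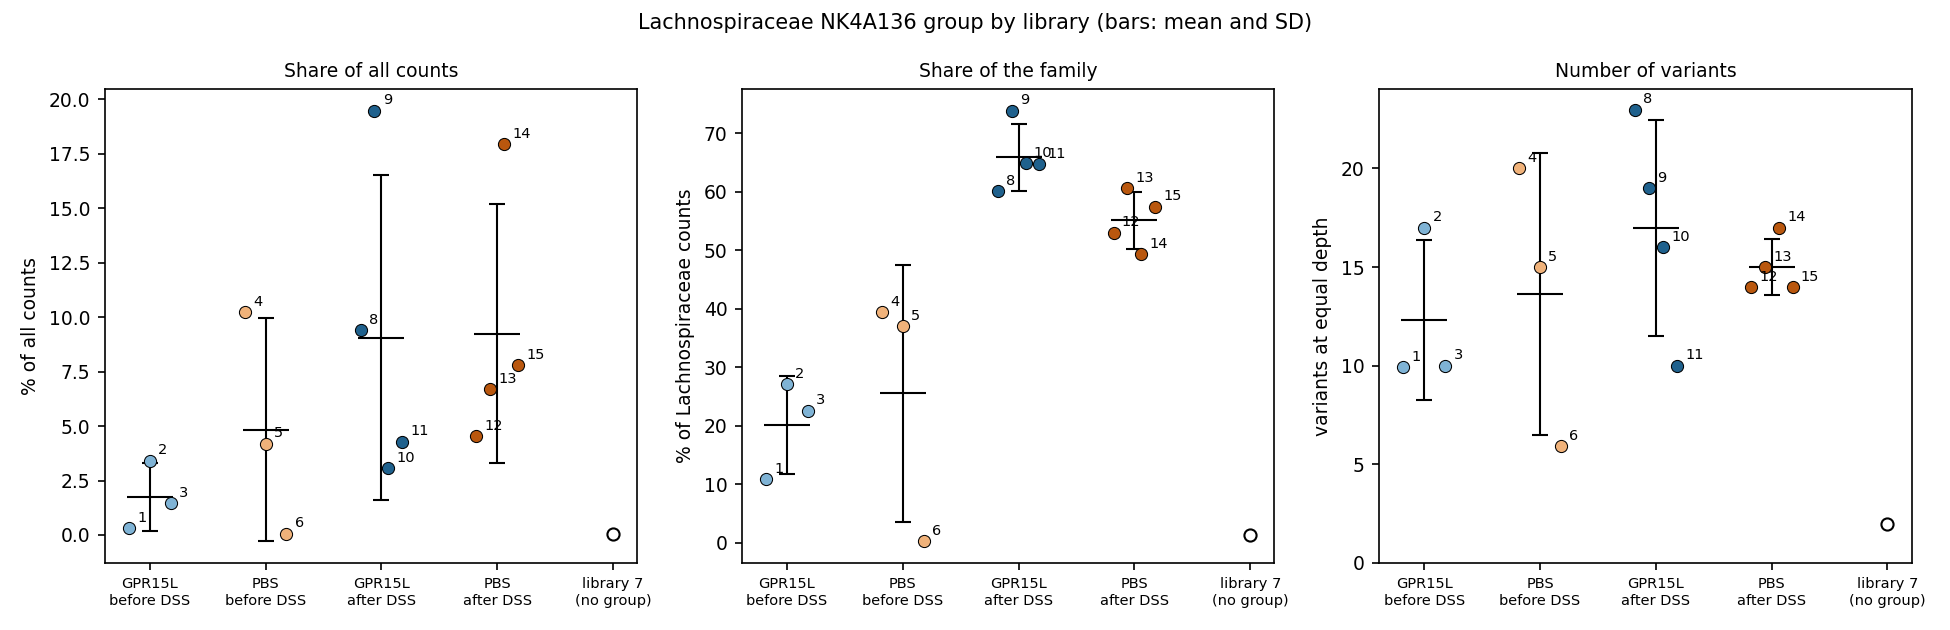
The NK4A136 group by library (points, with library numbers) and group (bars: mean and SD), as percent of all counts, percent of Lachnospiraceae counts, and variants expected at 48847 counts; the open point is library 7. The share of the family lies between 49.4% and 73.9% after DSS and at or below 39.5% before, while total share and number of variants overlap between groups.

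After DSS, the comparison the study was built around, the arms differed in the variants found about as much as over all ASVs. The share in common was near that of all ASVs, at 41.2% against 37.5% of those found in either arm. In at least 1 library, 26 members were found with GPR15L and 22 with PBS. They shared 14, which is 53.8% of those with GPR15L and 63.6% of those with PBS, and the shared ones were 55.2% and 53.9% over all ASVs. Before DSS the arms shared 18 of 21 each (85.7%), against 78.9% and 68.5% over all ASVs, so that less was shared after DSS in both counts. ASV58, ASV100 and ASV190 were found in all 4 PBS libraries and in none with GPR15L, and ASV157 and ASV240 in all 4 GPR15L libraries and in none with PBS. These were 3 and 2 of the 40 members, and of all 507 ASVs 8.09% had the first pattern and 3.55% the second. With so few members, no difference from all ASVs is read from this. Members with no count in the GPR15L arm held 16.7%, 16.9%, 21.5% and 22.2% of the genus in the PBS libraries, and members with no count in the PBS arm held 5.68%, 14.6%, 10.6% and 6.33% in the GPR15L libraries.

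Tests of single variants used the same edgeR model, adjusted over the 282 ASVs that had at least 10 counts in all and a count in at least 3 libraries. Of the 40 members 29 were tested, which held 98.7% of the genus counts. The other 11 had 5 to 347 counts in all, were found in at most 2 libraries and reached at most 0.443% of counts in any. After DSS 5 of the 29 members were higher with GPR15L (17.2%) and 3 lower (10.3%). Of all 282 ASVs 10.6% were higher and 17.4% lower, so the 27.6% of members that passed is near the 28.0% of all ASVs. Of the 29 members 3 had no count in either arm after DSS and could not pass, as had 34 of the 282 ASVs. Of the 8 calls 4 (ASV117, ASV190, ASV251 and ASV261), and 18 of the 79 over all ASVs, were of variants with counts in 1 group of the series only. These entered the test only through the group where they are high, which fixed their direction, and their calls are given as a description. ASV157 and ASV240 were found outside the GPR15L libraries after DSS in 2 and 1 libraries only. They too met the minimum of 3 libraries only through the group where they are high, and their calls are likewise a description. The median log2 fold change was 0.16 over the tested members and 0 over all ASVs, also with variants missing from 1 arm set at their bound. Each of these 8 members had no count in the other arm.

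ASV58 made up 0.414%, 0.532%, 2.95% and 1.05% of counts in the PBS libraries after DSS (1.23% ± 1.17 SD, n = 4) and had no count with GPR15L (at least 1354-fold lower, edgeR adjusted p = 0.00426). Without library 14 its PBS mean was 0.664%. Before DSS it was found in the PBS arm at 0.756%, 0.219% and 0.00526% and, of the GPR15L arm, in library 1 alone, at 0.00608%. ASV100 made up 0.175%, 0.366%, 0.588% and 0.284% with PBS (0.353% ± 0.175; at least 388-fold lower with GPR15L, adjusted p = 0.0202). Before DSS it was found in 2 PBS libraries, at 0.412% and 0.205%, and in library 1 of the GPR15L arm at 0.123%. ASV190 made up 0.0113%, 0.0919%, 0.276% and 0.238% with PBS (0.154% ± 0.124; at least 169-fold lower, edgeR adjusted p = 0.0205) and was found in no library before DSS. ASV58 and ASV100 thus had counts in both arms before DSS, and ASV190 in neither.

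ASV157 made up 0.116%, 0.445%, 0.0526% and 0.155% with GPR15L (0.192% ± 0.173 SD, n = 4) and had no count with PBS (at least 150-fold higher, edgeR adjusted p = 0.0182). Leaving out library 9 put its mean at 0.108%. It had already been found in libraries 2 and 3 of the GPR15L arm before DSS, at 0.0873% and 0.0239%, and in no PBS library. ASV240 made up 0.0367%, 0.144%, 0.0191% and 0.0711% (0.0678% ± 0.0554, and 0.0423% without library 9; at least 52.8-fold higher, adjusted p = 0.0309 by edgeR). Before DSS it was found in library 2 alone, at 0.0218%. Neither variant was therefore found in any PBS library at either time.

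The other variants called higher with GPR15L after DSS, ASV117, ASV251 and ASV261, were each found in 3 of 4 GPR15L libraries and nowhere else in the series, and thus met the minimum of 3 libraries through that group alone. ASV117 made up 0.0997%, 1.55%, 0.190% and 0 (0.460% ± 0.731 SD, n = 4; at least 358-fold higher, adjusted p = 0.0229 by edgeR). Library 9 held most of its counts, and the mean of the others was 0.0965%. ASV251 made up 0.114%, 0, 0.0191% and 0.0337% (0.0416% ± 0.0499; at least 32.4-fold, adjusted p = 0.0481; 0.0176% without library 8). ASV261 made up 0.0693%, 0.0554%, 0.0367% and 0 (0.0403% ± 0.0300; at least 31.4-fold, edgeR adjusted p = 0.0433).

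**Figure D3:**
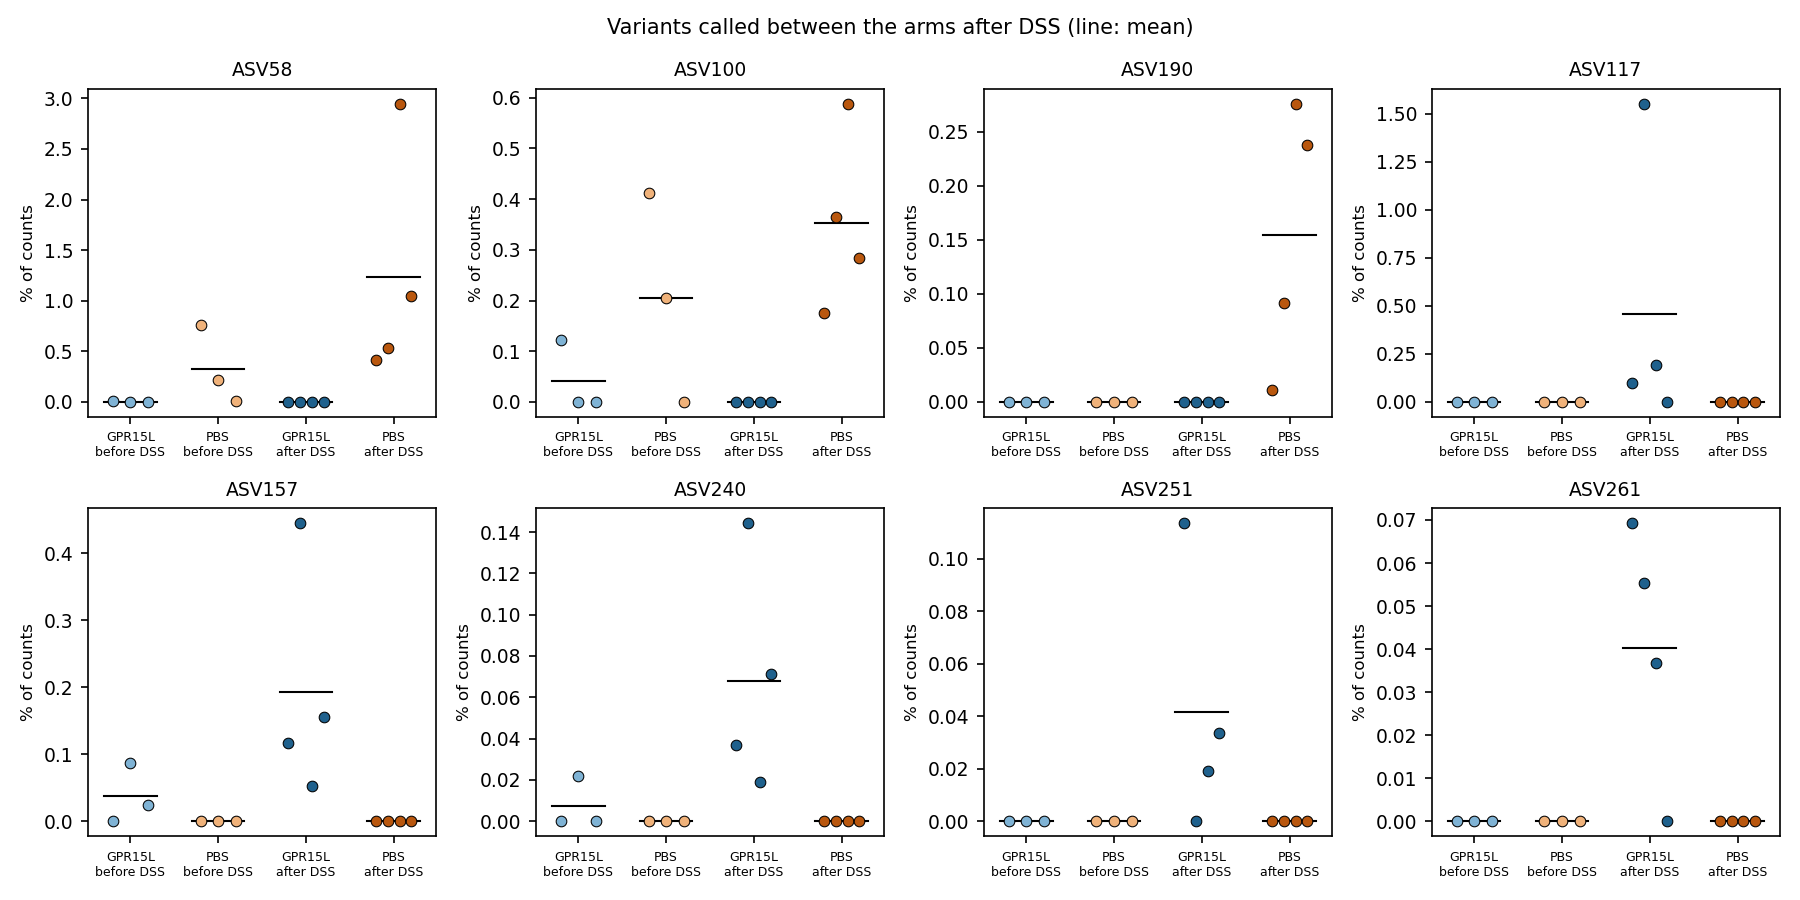
Percent of counts, by library and group (lines: group means), of the 8 variants that passed the edgeR test between the arms after DSS. ASV58, ASV100 and ASV190 lie at 0 in all 4 GPR15L libraries after DSS, and the other 5 lie at 0 in all 4 PBS libraries after DSS; each panel has its own axis.

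These calls differed in how firm they were. ASV58, ASV100, ASV157 and ASV190 passed in all 15 alternative fits in which each was tested. Among these were the fits that leave out each library after DSS in turn. Their highest adjusted p was 0.0471 (edgeR, ASV100 without library 8). The lowest, 6.61e-22, was that of ASV100 by DESeq2, with a group at 0 and a log2 fold change of -25.0, against -11.1 by edgeR. ASV117, ASV157, ASV190, ASV240, ASV251 and ASV261 entered the test only through the group where they are high, as said above. ASV117, ASV251 and ASV261 had counts in 3 libraries only, and a fit without any 1 of these did not test them. Their numbers of fits, given next, leave those fits out and so do not show how firm the calls are. ASV117 lost its call in 1 of 12 (adjusted p = 0.0572 without library 12), ASV240 in 6 of 14 (up to 0.0654), ASV251 in 7 of 11 (up to 0.141) and ASV261 in 6 of 11 (up to 0.147). With only the groups compared in the fit, 11 members passed, ASV42 among them (edgeR adjusted p = 0.0180). ASV128, without a count with GPR15L after DSS, was not called (edgeR adjusted p = 0.0528) but passed, lower, in 5 alternatives, with adjusted p of at most 0.0491. Fits without library 8, 9 or 10 tested 25, 26 and 25 members, against 29 in the main fit, so calls lost there include members no longer tested. The number of members called fell from 8 to 4 without library 8 or 12 and to 5 without library 9, 10, 13 or 15. With library 7 counted as titled it was 9, but the members found in all PBS libraries and in none with GPR15L then numbered 0, since library 7 held 2 members only.

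Pooled over the libraries of each arm, most variants were found in both arms before DSS (18 of 21 each). Single libraries varied more: only 4 members were found in every library of the GPR15L arm, and 4 in every library of the PBS arm. No member was present in all libraries of 1 arm while missing from the other, a pattern shown by 1.58% of all 507 ASVs for GPR15L and by 0.197% for PBS. By edgeR 0 of 29 members passed, of which 8 had no count in either arm and could not, with 5 at unadjusted p under 0.05 and 2 called by DESeq2 (ASV58 lower, adjusted p = 0.0235; ASV157 higher, adjusted p = 0.0486). Of all 282 ASVs 1.42% were higher and 0.355% lower. ASV58 had an edgeR adjusted p of 0.228 in this comparison (log2 fold change -6.30 ± 2.02 SE), as did ASV157. The signs of both are those seen after DSS; whether the mice sampled at the 2 times shared cages was not analysed here. The median log2 fold change was -0.62 over the tested members and -0.37 over all ASVs (-0.62 and -0.32 with bounds).

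In the PBS arm most variants were found both before and after DSS. Its libraries held 21 members before and 22 after DSS and shared 16, which is 76.2% and 72.7% of them, against 57.9% and 75.9% over all ASVs. Members not seen before DSS in this arm held 0.249%, 11.5%, 7.85% and 13.6% of the genus in libraries 12 to 15. ASV190 was found in all 4 libraries after and in none before DSS, as were 2.17% of all ASVs. No member was found in every library before and in none after, a pattern of 0.789% of ASVs. The median log2 fold change was 0 over the tested members and over all ASVs. By edgeR 0 of 29 members passed, of which 6 had no count in this arm and could not, against 1.77% of all ASVs higher and 2.48% lower after DSS. Of the members, 7 stood at unadjusted p under 0.05, and DESeq2 called 6: ASV73, ASV74, ASV79 and ASV190 higher and ASV104 and ASV123 lower. Their edgeR adjusted p lay between 0.0673 and 0.0900. In this arm ASV73 had counts in library 14 alone, so that its call rests on that library. ASV190 had counts in no other group of the series, which fixed its direction. ASV74 and ASV79, and likewise ASV104 and ASV123, kept a nearly fixed ratio, as given further on, and may not be separate measurements. Without library 6, ASV104 and ASV123 passed edgeR too (adjusted p = 0.0438 and 0.0154).

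In the GPR15L arm 12 members were found at both times, 14 only after and 9 only before DSS. The shared ones were 57.1% of those found before and 46.2% of those found after, against 46.2% and 54.0% over all ASVs. Members without a count in this arm before DSS held 56.9%, 61.8%, 56.3% and 10.6% of the genus in libraries 8 to 11, so library 11 stood apart from libraries 8 to 10. By edgeR 6 of 29 members were higher after DSS (20.7%) and 3 lower (10.3%), against 8.87% and 19.5% of all ASVs. Among the 6, ASV39, ASV74 and ASV79 kept a nearly fixed ratio to each other, as given further on, and may not be separate measurements. The median log2 fold change was 1.49 over the tested members and 0 over all ASVs, also with bounds; 15 of the 29 members had counts at 1 of the times only. These calls were not firm: 4 were left without library 11, 1 without library 1 or 2, and 5 with library 7 as titled. Without library 3, 8, 9 or 10 edgeR called 0 of them, and the adjusted p of those tested then lay between 0.0511 and 0.0934.

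ASV39 was the largest of the variants called higher, at 2.56%, 4.57%, 0.344% and 0 in libraries 8 to 11 (1.87% ± 2.13 SD, n = 4) and without a count in the GPR15L arm before DSS (at least 2050-fold, edgeR adjusted p = 0.0285; 0.969% without library 9). In the PBS arm it was found before DSS in library 6 alone, at 0.0128%, and after DSS at 0, 1.03%, 0.765% and 1.08%. ASV74 was found only after DSS, at 0.939%, 1.80%, 0.150% and 0 with GPR15L (at least 792-fold, edgeR adjusted p = 0.0288; 0.363% without library 9) and at 0, 0.332%, 0.305% and 0.430% with PBS. ASV79, also found only after DSS, stood at 0.771%, 1.48%, 0.116% and 0 with GPR15L (at least 649-fold, edgeR adjusted p = 0.0313; 0.296% without library 9) and at 0, 0.314%, 0.253% and 0.393% with PBS. These 3 variants were thus missing from the same library of each arm, 11 and 12. ASV73 was found in all 4 GPR15L libraries after DSS, at 0.692%, 1.93%, 0.859% and 0.408%, and in none before (at least 1066-fold, edgeR adjusted p = 0.0329), a pattern of 2.56% of all ASVs. With PBS it was found in library 14 alone, at 0.564%. It thus met the minimum of 3 libraries only through the GPR15L libraries after DSS, where it is high.

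ASV87 was the only one of the 9 with counts on both sides. In the GPR15L arm it stood at 0.00608%, 0.0218% and 0 before DSS and 0.337%, 0.735%, 0.199% and 0.251% were measured after it (log2 fold change 5.44 ± 1.94 SE, edgeR adjusted p = 0.0484), with no overlap. In the PBS arm the values before DSS were 0.354%, 0.209% and 0, and those after DSS, 0.196%, 0.0739%, 0.408% and 0.0511%, overlapped with them. ASV117, which has counts in this group alone, completed the 6 higher variants (at least 504-fold, adjusted p = 0.0454). ASV123 stood at 0.0334%, 0.0626% and 0.0207% before and had no count after DSS in the GPR15L arm (at least 42.7-fold lower, edgeR adjusted p = 0.0484), a pattern of 7.89% of all ASVs. Its only other counts were in 2 PBS libraries before DSS. It thus met the minimum of 3 libraries only through the GPR15L libraries before DSS, where it is high in this comparison. ASV128 was found in 2 libraries before DSS, at 0.508% and 0.136% (at least 235-fold lower, edgeR adjusted p = 0.0484; 0.0678% without library 2). ASV100 was found in library 1 alone before DSS (at least 44.8-fold lower, edgeR adjusted p = 0.0484), so that this call rests on that library. ASV100 and ASV117 also passed between the arms after DSS, and both comparisons use the same GPR15L libraries.

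**Figure D4:**
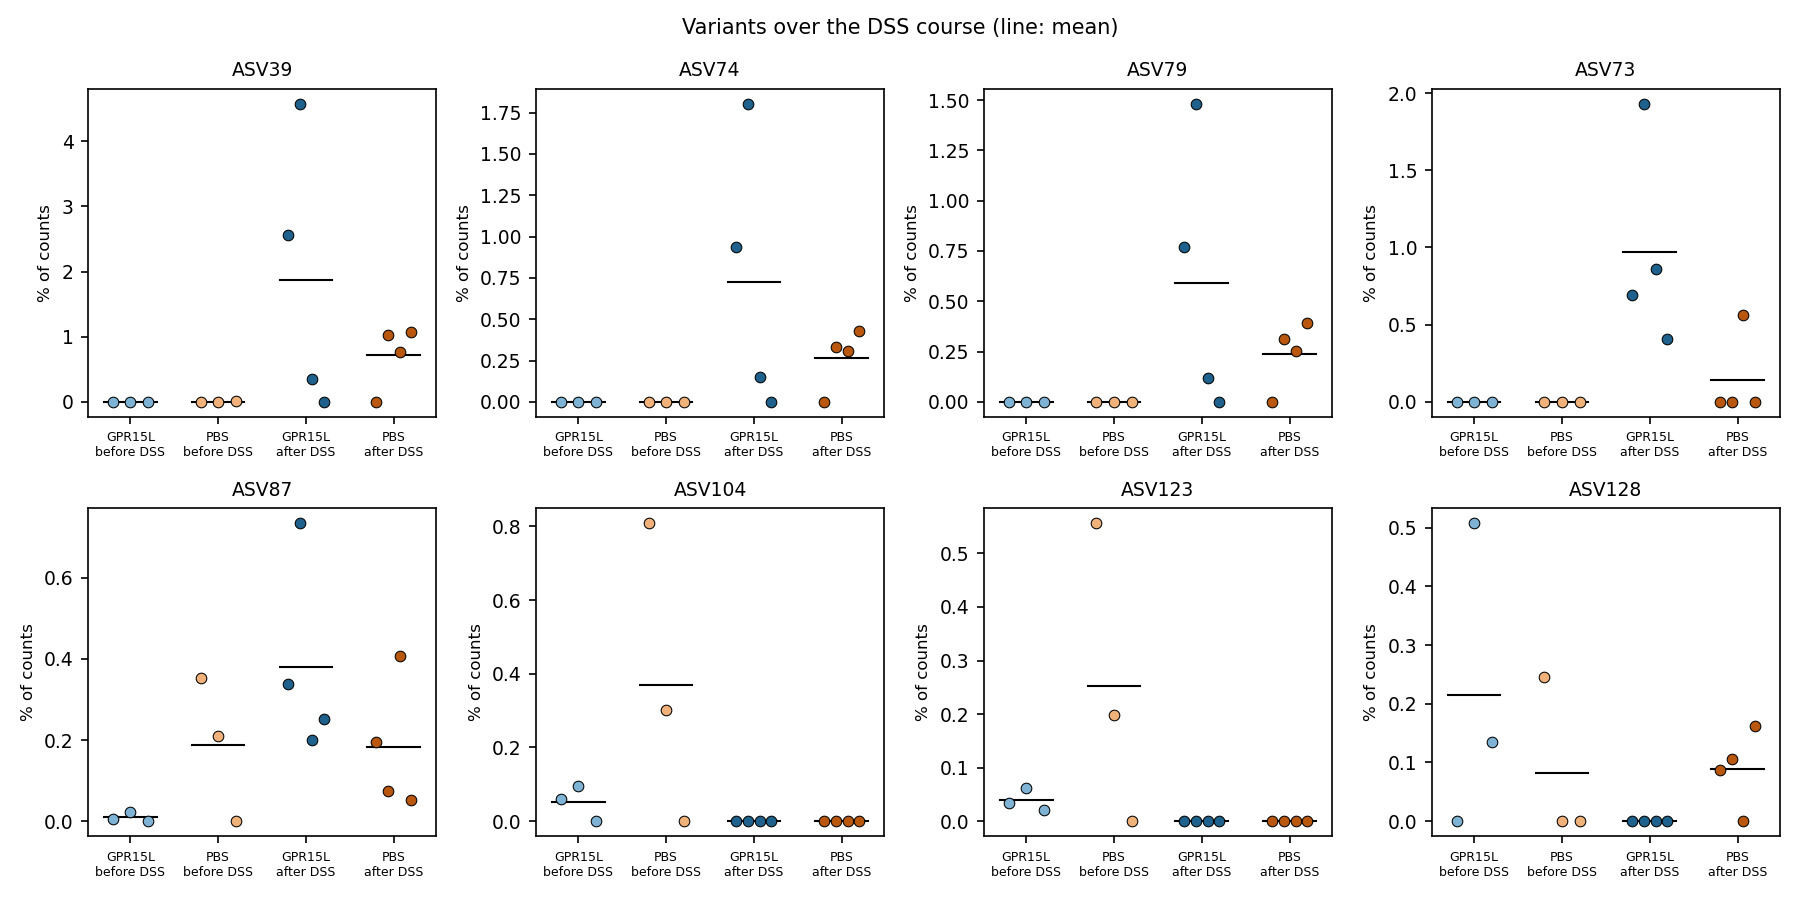
Percent of counts by library and group (lines: group means) of 7 of the 9 variants called over the DSS course in the GPR15L arm and of ASV104, which did not pass there. ASV39, ASV74, ASV79 and ASV73 lie at 0 in the GPR15L arm before DSS, and ASV104 and ASV123 lie at 0 in all 8 libraries after DSS; each panel has its own axis.

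A difference between the time courses of the arms was then tested as an interaction. For 14 of the 29 members, and 81 of the 282 ASVs, no term could be estimated, since a group at 0 stood on each side of the contrast; these could not pass whatever their counts elsewhere. Among them were ASV117, ASV157, ASV190, ASV240, ASV251 and ASV261, 6 of the 8 called between the arms after DSS, and ASV73, ASV74, ASV79, ASV104 and ASV123. Of the other 15 members edgeR called 0, against 13.9% of the other 201 ASVs. Of all 282 ASVs 3.55% passed with a positive and 6.38% with a negative term. Of the members, 4 stood at unadjusted p under 0.05: ASV58, ASV87, ASV100 and ASV128, with adjusted p of 0.104, 0.139, 0.0980 and 0.110. DESeq2 called 3 (ASV87, ASV100 and ASV128). The interaction thus says nothing about a variant gained or lost in 1 arm and missing elsewhere. For the shares found only after DSS, the 16 such members together held 29.6%, 38.4%, 45.0% and 10.6% of the genus in libraries 8 to 11 and 0.249%, 11.5%, 7.85% and 13.6% in libraries 12 to 15. The arms overlapped here through library 11.

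The related taxa give a background for these counts. Of 31 tested Lachnospiraceae ASVs with another genus name, 5 were higher and 2 lower with GPR15L after DSS, and of 40 without a genus 4 were higher and 6 lower. Over the course in the GPR15L arm these were 2 higher and 5 lower, and 4 higher and 5 lower. In the PBS arm over the course 1 of the 31 was lower and 1 of the 40 was higher. Both lists, like the NK4A136 group, thus held variants called in each direction. In the Clostridia vadinBB60 group, another set of uncultured Clostridia, 0 of 13 were higher and 10 lower with GPR15L after DSS. Before DSS edgeR called none of the 31 or the 40 between the arms, with 2 and 3 at unadjusted p under 0.05, and 1 of the 13, lower.

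Several variants kept a nearly fixed ratio to each other. Pairs were taken as near constant if they were found together in at least 4 libraries, had at most 50 counts where only 1 of them was found, and had an SD of the log2 ratio under 0.4, a rule set after the values were seen. ASV39 had 2.30 to 3.09 times the counts of ASV74 and 2.75 to 3.32 times those of ASV79 in the 6 libraries that held them all, and ASV74 had 1.06 to 1.29 times those of ASV79. The 3 together made up 45.4%, 40.3%, 19.9% and 0 of the genus in libraries 8 to 11, and 0, 25.0%, 7.38% and 24.3% in libraries 12 to 15. ASV104 had 1.45 to 1.79 times the counts of ASV123 in 4 libraries before DSS, and neither had a count after DSS. ASV157 had 2.18 to 4 times those of ASV240 in 5 libraries. These were 5 of the 10 pairs of members found together by this rule, 3 of them within the set of ASV39, ASV74 and ASV79. Among all tested ASVs 31 of 2448 such pairs (1.27%) met it, these 5 included; since the rule was set on the members' values, the counts are a description. The rule also paired ASV123 with ASV227, a Lactobacillus, which belongs to another class of bacteria, and ASV210 with ASV232, one of the Lachnospiraceae without a genus. Members of such a set may not be separate measurements.

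The makeup of the genus was compared between libraries by the Bray-Curtis distance of variant shares within the genus, which is 0 for the same shares and 1 where no variant is shared. Pairs of PBS libraries after DSS lay closest (0.248 ± 0.0631, SD over 6 pairs), and pairs of GPR15L libraries after DSS at 0.466 ± 0.118 (6 pairs). Pairs across the arms after DSS lay at 0.648 ± 0.105 (16 pairs), from 0.429 to 0.803. Before DSS the distances were 0.718 ± 0.199 within the GPR15L arm, 0.532 ± 0.0964 within the PBS arm (3 pairs each) and 0.612 ± 0.140 across the arms (9 pairs), with the distance across the arms between those within them. Over the DSS course the PBS arm lay at 0.495 ± 0.125 and the GPR15L arm at 0.770 ± 0.139 (12 pairs each). Library 4 of the PBS arm before DSS and library 12 after it were as close (0.250) as PBS libraries after DSS were to each other. Without library 1 the GPR15L arm before DSS lay at 0.491 and the distance across the arms at 0.561, above both arms. Library 6 held only 81 counts of the genus. Leaving it out put the PBS arm before DSS at 0.426 and the distance across the arms at 0.560. Pairs share libraries and the distances were not tested.

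**Figure D5:**
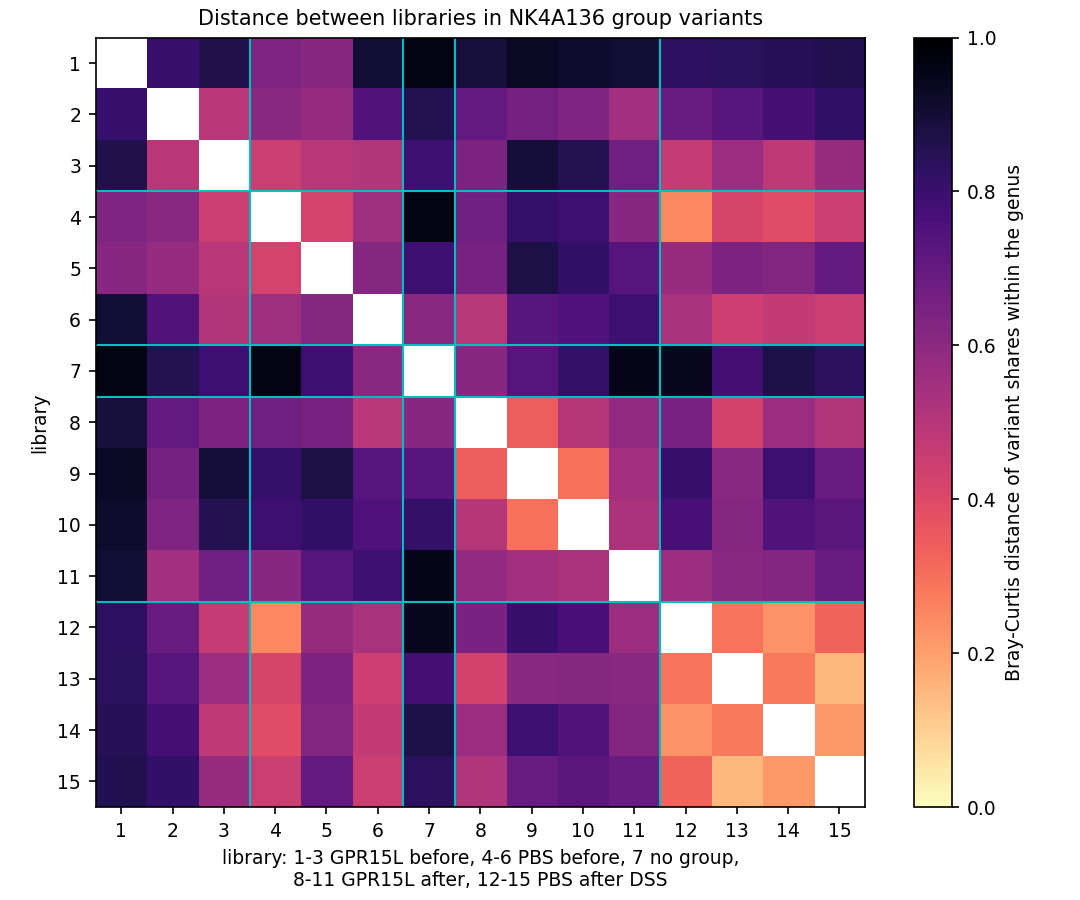
Bray-Curtis distance of variant shares within the NK4A136 group between all pairs of the 15 libraries (rows and columns), with lines between the groups; light colours are small distances. The block of libraries 12 to 15 is the lightest (mean 0.248), library 4 is light against library 12 (0.250), and library 1 is dark against all libraries after DSS.

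The same distance across the arms after DSS was 0.742 among Lachnospiraceae without a genus, 0.812 in the Clostridia vadinBB60 group, 0.422 among Muribaculaceae without a genus and 0.513 over all ASVs. The distance within the PBS arm after DSS was 0.439, 0.194, 0.233 and 0.336 in these sets. The NK4A136 group thus lay between the other sets in both, and no test was made of these differences.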

How the data were processed

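Stool DNA was extracted with a Qiagen kit and its V4 amplicons were read on an Illumina MiSeq, per the labels' protocols. The authors deposited read counts, whole numbers per ASV, in a table whose name says DADA2. The DADA2 version, read filters and taxonomy reference: not given in the sources used here. The submitters' processing notes list R 4.5.1 and limma. Copy number of the 16S gene was not corrected for.

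The members and lists were chosen with earlier results of these data known. ASVs and genus sums were tested with edgeR 4.0.16 in R 4.3.3, giving each group its own mean over 14 libraries, TMMwsp scaling, the quasi-likelihood fit and Benjamini-Hochberg adjustment at 0.05. The SE was derived from the log2 value and the F statistic (its size divided by the root of F). With a group at 0 it bounds nothing. Self-tests used simulated data. Shares, expected variants at equal depth and distances are descriptions. Named members are the 8 with the highest mean share, all that passed in any comparison, and those present after DSS in all libraries of 1 arm while missing from the other; others (ASV104, and those called by DESeq2 or in a fit without 1 library) were named after their values were seen. The alternatives tried were TMM, scaling by total counts alone, DESeq2 1.42.0 (poscounts), other filters, the compared groups alone, library 7 as titled, stricter detection, Jaccard distance and each library of the groups compared left out in turn.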

Additional observations from a re-analysis of the deposited data

Results flagged for a closer look

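Dixon's outlier criterion was applied to 37 sets of 4 libraries after DSS, over the named members and the measures of the whole genus, and 4 stood out. Chance flags about 1 in 20 such sets where values are normally spread, which was not shown for these shares. A set of 4 with counts in 1 library only, such as that of ASV73 with PBS, is flagged whatever its value. Library 14 was far above the other PBS libraries after DSS in 3 variants: ASV22 made up 6.10% of its counts against 1.67% to 2.26% in the others, ASV51 made up 1.56% against 0.232% to 0.450%, and ASV73 made up 0.564% against 0 in the others. Library 9 was far above the other GPR15L libraries after DSS in ASV117, at 1.55% against 0 to 0.190%.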

How the results depend on the processing

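No paired analysis was possible because each of the 15 libraries has a mouse number of its own. Members called between the arms after DSS numbered 8, and 5 with a filter at a mean share of 0.1%, where 23 members were tested; with only the groups compared they numbered 11. Over the course in the GPR15L arm they numbered 9, and 5 with library 7 as titled. DESeq2 called 2 before DSS, 6 over the course in the PBS arm and 3 in the interaction, where edgeR called 0; without the count filter edgeR called 6 over the course in the PBS arm and 3 in the interaction. The genus total after DSS turned sign with DESeq2 (0.030), library 7 as titled (0.056) and only the groups compared (0.047), where the median of all ASVs moved from 0 to 0.68; the cause was not tested. With library 7 as titled, variants at equal depth with PBS after DSS were 12.4, members found in every PBS library and in no GPR15L library 0, and the distance within that group 0.491. By Jaccard distance, without library 7, it was 0.402.

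Leaving out 1 library of the groups compared at a time gave 4 to 8 calls after DSS, 0 to 0 before DSS, 0 to 4 over the course in the GPR15L arm, 0 to 2 in the PBS arm (2 without library 6) and 0 to 1 in the interaction (1 without library 4 or 6). The genus total then ran from -0.55 to 0.21 after DSS, from -1.28 to 0.15 before DSS, from 1.27 to 2.18 and from 0.75 to 1.90 over the course in the GPR15L and PBS arms, and from -0.060 to 1.02 in the interaction, which turned sign without library 1 (-0.060) or 4 (-0.040). Variants at equal depth ran from 9.97 to 13.5 and from 10.5 to 17.5 before DSS, and from 15.0 to 19.3 and from 14.3 to 15.3 after it, for GPR15L and PBS. Members present in all libraries of 1 arm while missing from the other ran from 2 to 5 (GPR15L; 5 without library 11) and from 3 to 4 (PBS) after DSS, and from 0 to 1 for each arm before it. Distances ran from 0.491 to 0.861 within the GPR15L arm and from 0.426 to 0.614 within the PBS arm before DSS.

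Depth limits what a missing variant means: 11 members were too sparse to test, and with 3 or 4 libraries a group and wide spread between mice, a variant that missed the threshold is not shown to be equal between groups.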
